A study of Mus musculus with 59 samples.

Results

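The 6 epiblasts described here were control embryos of a mouse study of H3K9 and H3K27 methylation at implantation, numbered 1 to 3 in each of 2 crosses. They made up 6 of the 59 samples of the series and 6 of its 14 epiblasts with RNA-seq. Each library came from the dissected epiblast of a single E6.25 embryo on a mixed background. The parents were Ehmt2+/- × Ehmt2+/- in the first cross and Ezh2+/- × Ezh2+/- in the second; Ehmt2 encodes the H3K9 methyltransferase G9a and Ezh2 encodes the H3K27 methyltransferase of Polycomb repressive complex 2. The labels give the controls as G9a+/+ and Ezh+/+, whereas legends of the study allow either wild-type or heterozygous embryos among the controls of both crosses. The Ehmt2 line had also been bred to the ΔPE-Pou5f1-EGFP reporter, and no such reporter is named for the Ezh2 line, so allele, reporter and colony cannot be told apart from cross. The study drew its RNA-seq embryos, knockouts included, from 4 litters in the Ehmt2 cross and from 3 in the Ezh2 cross. Which embryos shared a litter is not given, and the p-values below measure only the spread between these embryos. The other control, number 4 of the Ehmt2 cross, and knockouts 1 to 3 of each cross enter only as checks. Knockout 4 of the Ehmt2 cross was not used.

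The epiblast is the pluripotent epithelium that gives rise to the embryo proper. After implantation it loses the naive pluripotency factors of the blastocyst, keeps the core factors Pou5f1 and Nanog, and gains formative and primed genes such as Otx2, Fgf5 and the de novo DNA methyltransferases. It is wrapped in visceral endoderm, adjoins the extraembryonic ectoderm and lies inside maternal decidua. Shortly after this stage the primitive streak forms at its posterior edge and T, Mixl1 and Eomes come on.

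The libraries held between 34254339 and 45007990 counts over all transcripts, and between 14063771 and 18301503 when each of 20508 genes was represented by its most counted transcript. A count of 3 corresponded to 0.164 to 0.213 CPM, the count unit of edgeR relative to library size, and such limits cover counting error only. Levels below are CPM after TMM scaling, and levels of different genes are compared as CPM per kb of transcript unless plain CPM is named. Correlations of log2 CPM across genes were 0.963 to 0.972 within the Ehmt2 cross, 0.951 to 0.954 within the Ezh2 cross and 0.945 to 0.965 between crosses. Ezh2 control 2 stood apart by visceral endoderm genes, Ezh2 control 1 by genes of maternal decidua, and Ezh2 control 3 by mitochondrially encoded genes. Hypoxia genes were high in both Ezh2 control 1 and Ezh2 control 2, with sums of 2512 and 2434 CPM against 1690 to 2009 elsewhere. The values of these embryos stand beside each result they touch. In bulk tissue, fewer cells of a type and less RNA per cell cannot be told apart.

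The defining markers of epiblast were present in every library. Pou5f1, the POU factor that defines pluripotent cells, stood at 355.5, 394 and 355.9 CPM in the Ehmt2 controls and at 343.3, 323.4 and 391.9 CPM in the Ezh2 controls. Blood genes summed to between 10.3 and 20.09 CPM, with 3 of 11 listed members at 10 counts or more in every epiblast. The trophoblast factors Elf5 and Cdx2 stayed at or below 1.326 and 1.072 CPM. Other members of the extraembryonic ectoderm list were present, and 8 of its 18 genes had 10 counts or more in every epiblast. Of these, the keratin genes Krt18 and Krt8 ranged from 17.54 to 53.27 and from 7.626 to 27.11 CPM. The tissue that gave these reads was not tested.

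The most abundant messages of the control epiblast were those of translation, protein folding and energy supply. By level per kb the order began with Gm20594 at 11520 ± 1125 CPM per kb (SD, n = 6), Lars2 at 9845 ± 1077 and Npm1 at 5912 ± 252.7. Gm20594 and Lars2 did not differ beyond their spread. Lars2, which encodes the mitochondrial leucyl-tRNA synthetase, alone took between 3.225 and 4.297% of the counts of an epiblast. It stood at 9143, 9574 and 9991 CPM per kb in the Ehmt2 controls and at 10990, 11070 and 8297 in the Ezh2 controls, so the crosses overlapped. Npm1, the nucleolar chaperone nucleophosmin, was steadier and kept between 5609 and 6255 CPM per kb in all 6 epiblasts.

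**Figure D1:**
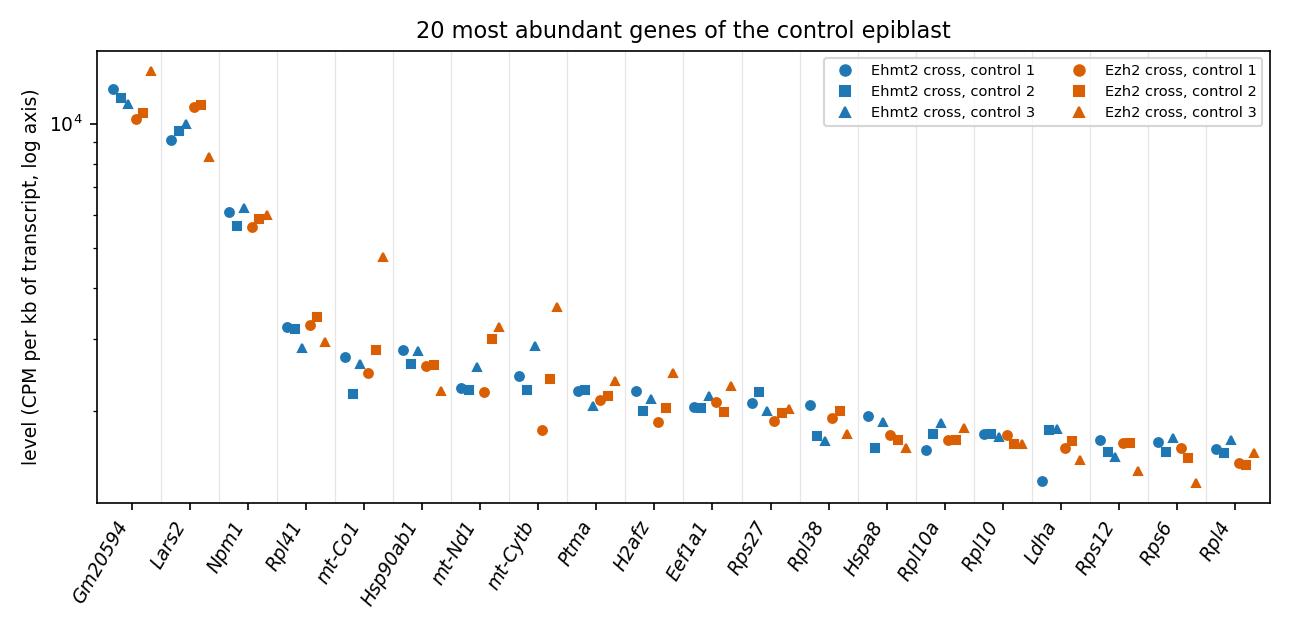
Level of the 20 most abundant genes in each of the 6 control epiblasts, as CPM per kb of transcript on a log axis, with symbols for epiblasts and colours for crosses. Gm20594 and Lars2 lead at means of 11520 and 9845, and mt-Co1 is highest in Ezh2 control 3.

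Of the 20 most abundant genes, 8 encode cytosolic ribosomal proteins, led by Rpl41 at 3139 CPM per kb. The chaperones Hsp90ab1 and Hspa8 reached 2610 and 1759, the elongation factor Eef1a1 2113, the histone variant gene H2afz 2132, the acidic chromatin protein gene Ptma 2209 and lactate dehydrogenase Ldha 1637 CPM per kb. Of the mitochondrially encoded genes, mt-Co1, a subunit of cytochrome c oxidase, averaged 2925 CPM per kb, mt-Nd1 2588 and mt-Cytb 2561. The value of mt-Co1 was 2717, 2201 and 2609 in the Ehmt2 controls and 2479, 2814 and 4733 in the Ezh2 controls, so a single library raised its mean. Ezh2 control 3 was also the highest epiblast for 7 of 13 listed mitochondrially encoded genes, and they took 2.075% of its counts against 1.124 to 1.464% elsewhere. Listed levels of mt-Co2, mt-Co3 and mt-Atp6 lay near 0 in every library, with means of 0.09521, 0.07204 and 0.1314 CPM per kb, whereas mt-Nd5 averaged 1288 CPM per kb; why these genes lack counts was not tested. Ordered by plain CPM, without division by length, the list started with Lars2 at 38330 CPM and Npm1 at 9655, and Dnmt3b, the de novo DNA methyltransferase, took rank 8 at 4448.

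Several of these levels rest on sequence that other genes also hold. Gm20594 (chromosome 6, 79817916 to 79818364 on GRCm38) is a short gene of 449 nt that carries a stretch of mitochondrial ribosomal RNA. Its longest exact run in common with the mitochondrial genome covers 65 bases, from 368 to 432 of the transcript and from 2102 to 2166 of the mitochondrial sequence. The start of that run is shown because reads of 40 nt from mt-Rnr2 can carry the same letters, and it is written in lower case since no base is marked.

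Gm20594, transcript 368 to 397, mitochondrial genome 2102 to 2131 (+): tttaatcagtgaaattgacctttcagtgaa

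In all, 6.341% of the 40-base windows of Gm20594 occurred in other genes or the mitochondrial genome, and the mitochondrial ribosomal RNAs themselves were not analysed here. The share was 0.441% for Lars2, 43.41% for Npm1, 98.69% for Rps27 and 68.95% for Eef1a1, so the levels of the last 3 are uncertain between copies. Only exact matches were searched, which misses reads aligned with mismatches, so the low share of Lars2 does not secure its level. The part of such shared reads in any level was not tested.

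The distribution of counts was alike across the embryos. The leading 10 genes held 8.382 to 8.965%, the leading 100 held 23.3 to 23.71% and the leading 1000 held 58.26 to 59.05% of the counts. Ribosomal protein genes took 5.503 to 5.99%, and 78 of 79 annotated members had at least 10 counts in every epiblast, with a median of 766 CPM per kb. Protein-coding genes made up 98.93 to 99.08%.

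At least 10 counts in every epiblast were found for 11956 genes, of which 11583 were protein coding and 57 were lincRNAs. At that limit 15958 genes were detected in at least 1 epiblast, so 4002 were detected in some and missed in others. The number per epiblast was 13667, 14181 and 13746 in the Ehmt2 controls and 13899, 13702 and 13392 in the Ezh2 controls. The crosses overlapped, with 13860 ± 276.8 against 13660 ± 255.6 genes (SD, n = 3 each), a difference of -200.3 (two-sided exact permutation test, p = 0.5, where the smallest possible p is 0.1). Thinned to equal totals the difference turned to 65.67, and no difference was detectable.

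Housekeeping complexes were expressed nearly in full. At least 10 counts in every epiblast were reached by 38 of 39 proteasome subunits, 75 of 80 nuclear genes of oxidative phosphorylation, 52 of 55 translation initiation factors, 7 of 8 CCT chaperonin subunits and all 6 Mcm helicase genes. Of 365 annotated Zfp genes, which encode zinc finger proteins, 307 reached the same limit, led by Zfp207 at 233 CPM per kb. Solute carriers were mixed, with 197 of 361 at the limit and Slc25a5, the adenine nucleotide carrier of mitochondria, highest at 267.8 CPM per kb.

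Families of sensory and differentiated cells were mostly silent. Under 10 counts in every epiblast, or not listed, were 1124 of 1135 olfactory receptor genes, 325 of 331 vomeronasal receptors, 37 of 38 taste receptors, 40 of 42 beta defensins, all 57 keratin associated proteins and 31 of 34 Rhox homeobox genes. The same held for 24 of 37 interleukin genes and 17 of 25 prolactin family genes, and 0 genes of either family reached 10 counts in every epiblast. The Hox clusters, which pattern the body axis after gastrulation, had 25 of 39 genes below the limit and 0 at the limit throughout. Their highest member was Hoxa11 at 3.27 CPM per kb, described below with the decidual genes. Genes of the Irx, Pax, Nkx and Lhx families, regulators of later organ formation, had 4 of 6, 6 of 9, 11 of 14 and 3 of 8 members under 10 counts in every epiblast or not listed, and 0, 1, 2 and 0 at the limit throughout. Lhx1 and Prl8a2, which reached 79.54 and 25.31 CPM in single embryos, are described below.

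Families with a role at this stage were expressed in part. Fgf5 led the Fgf ligands at 172.6 CPM per kb, with 8 of 22 members at the limit in every epiblast. Pou5f1 led the Pou factors at 264.8, Zic2 the Zic factors at 39.73 and Sox4 the Sox factors at 24.59 CPM per kb, with 4 of 15, 3 of 5 and 9 of 19 members at the limit. Of the claudins, which seal epithelial junctions, 5 of 23 reached the limit, led by Cldn6 at 210.6 CPM per kb, and keratins were led by Krt18 at 24.64. Wnt ligands were scarce, with 5 of 19 at the limit and Wnt8a highest at 2.96 CPM per kb.

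Of the core pluripotency genes, 12 of 13 had 10 counts or more in every embryo, the exception being Dppa2 with 0.1608 CPM in Ehmt2 control 2. The 13 core pluripotency genes summed to 3993, 3664 and 4210 CPM in the Ehmt2 controls and to 3523, 3630 and 3837 CPM in the Ezh2 controls. The RNA-binding protein gene Lin28a led them at 286.4 CPM per kb, followed by Utf1 at 281.5, Pou5f1 at 264.8 and the corepressor gene Trim28 at 199.1. Nanog, the homeobox factor, ranged from 50.5 to 86.55 CPM, and Sall4, a zinc finger factor, from 635.4 to 780.6.

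Formative and primed genes summed to 7089, 6784 and 7702 CPM in the Ehmt2 controls and to 6474, 6556 and 6989 CPM in the Ezh2 controls. Of these counts Dnmt3b gave the largest share, at 4327, 4238 and 5134 CPM against 4187, 4155 and 4646 CPM, which overlapped. It stood at 1030 CPM per kb, rank 50 of all genes, although 13.27% of its 40-base windows also occur in the related Dnmt3c. Otx2, a head and epiblast homeobox factor, was among the steadiest, from 383.4 to 426.9 CPM, and Fgf5 ranged from 359.3 to 519.4. At 10 counts or more in every epiblast were 16 of 17 members, and Epha5 stayed at or below 0.4824 CPM.

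Naive factors were low, and several lay near the limit of detection. The 15 naive genes summed to between 42.45 and 93.75 CPM, with 7 of them at 10 counts or more in every epiblast and 7 averaging under 1 CPM. Klf2 stayed at or below 0.5593 CPM, Nr0b1 at or below 0.5007 and Esrrb at or below 1.393, while Zfp42, also called Rex1, ranged from 0.3979 to 2.307. Prdm14, a naive and germ cell regulator, had 0 counts in 5 epiblasts, which allows up to 3 counts in each, and 0.1072 CPM in Ehmt2 control 2. Fgf4, at 6.082, 7.075 and 21.88 CPM against 22.58, 19.03 and 30.05, was the highest naive member, at 5.869 CPM per kb. Tet2, a hydroxylase of methylated DNA, ranged from 9.947 to 20.48 CPM and the naive factors Tfcp2l1, Klf5 and Tbx3 from 6.362 to 24.03, 2.475 to 17.41 and 2.188 to 14.12 CPM.

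**Figure D2:**
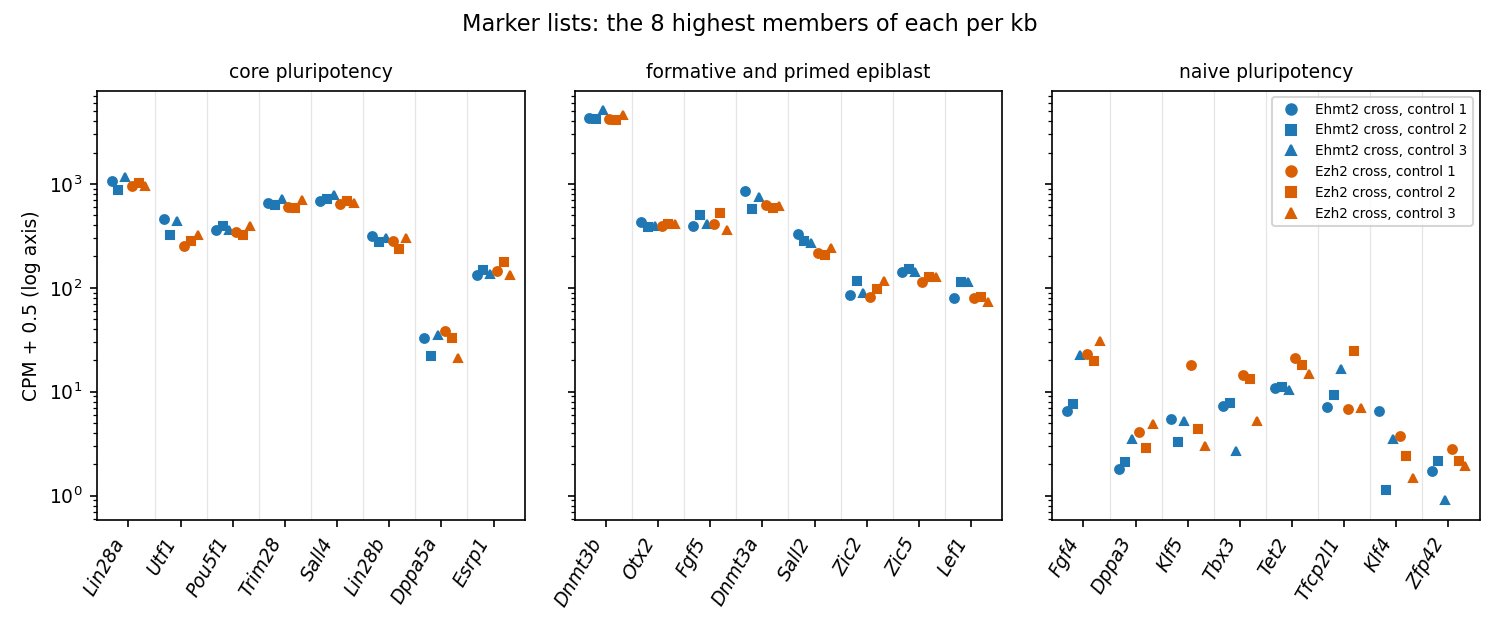
CPM plus 0.5 on a log axis of the 8 members with the highest level per kb of the core, formative and naive lists in each control epiblast. The core and formative genes shown are at 20.65 CPM or more, and the naive genes at 30.05 CPM or less.

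Of the FGF pathway, the ligand Fgf5 and the transcriptional target Etv5 stood at 172.6 and 111.6 CPM per kb. The feedback inhibitors Spry2, at 44.61, and Dusp6, at 27.69 CPM per kb, came next. In the Nodal pathway the co-receptor Tdgf1 led at 313.9 CPM per kb with 357.6, 600.3 and 552 CPM in the Ehmt2 controls and 970.9, 574.9 and 583.1 CPM in the Ezh2 controls. The ligand Nodal itself stood at 15.75 CPM per kb and ranged from 23.48 CPM in Ezh2 control 3 to 58.44 CPM in Ezh2 control 2. Of the BMP pathway, the receptor Bmpr1a ranged from 213.4 to 265.5 CPM and the target Id3 from 64.58 to 82.23, whereas the ligand Bmp4 stayed at or below 6.324 CPM.

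Chromatin modifiers differed little between embryos of a cross. The median SD within a cross was 0.19 log2 units over 12 DNA methylation genes, 0.15 over 14 H3K9 methylation genes and 0.16 over 10 PRC2 genes, against 0.2325 over 10046 genes with at least 5 CPM. That is in the range of genes of like level, whose median was 0.18 at 50 to 100 CPM and 0.13 at 100 CPM or more. Dnmt1, the maintenance methyltransferase, ranged from 350.1 to 413 CPM, its partner Uhrf1 from 231.4 to 325.1, and the hydroxylase gene Tet1 from 854.1 to 1144. Among H3K9 methylation genes, the heterochromatin protein genes Cbx3 and Cbx5 stood at 309 and 161.6 CPM per kb, and the methyltransferase gene Setdb1 ranged from 176.2 to 238.8 CPM.

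The targeted genes themselves were expressed in every control. Ehmt2 stood at 25.74, 28.03 and 39.19 CPM in its own cross and at 45.51, 40.91 and 41.29 CPM in the Ezh2 cross, without overlap but short of the test (log2 fold change, Ezh2 cross minus Ehmt2 cross, 0.46 ± 0.19 SE; edgeR adjusted p = 0.758). With control 4 of the Ehmt2 cross, at 77.4 CPM, this value turned to -0.01. Ezh2 stood at 231.1, 256.5 and 250.9 CPM against 128.8, 162.7 and 270.5 CPM, which overlapped (-0.39 ± 0.22 SE; edgeR adjusted p = 0.8278). For comparison, the knockouts held 12.2, 11.58 and 8.286 CPM of Ehmt2 and 28.98, 29.64 and 40.46 CPM of Ezh2, each in its own cross.

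Glycolysis, which splits glucose to pyruvate, had all 19 listed genes at 10 counts or more in every epiblast. They summed to 11100, 12940 and 12330 CPM in the Ehmt2 controls and 13690, 13740 and 11300 CPM in the Ezh2 controls. Ldha, Pgam1, Gapdh and Pgk1 led at 1637, 1067, 992.3 and 682.8 CPM per kb. Pgk1, phosphoglycerate kinase, stood at 840, 1211 and 1001 CPM against 1727, 1636 and 1061, with Ezh2 control 3 inside the Ehmt2 range. Hypoxia-response genes had a like order, with sums of 1701, 2009 and 1734 against 2512, 2434 and 1690 CPM, and Ezh2 control 1 was highest for 10 of 16 members. Their part in the difference between crosses was not tested.

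Cell cycle genes were high and even, with sums of 6600 to 7157 CPM over 26 members. Pcna, the replication clamp, led at 376.6 CPM per kb, ahead of topoisomerase Top2a at 192, Cdk4 at 173.8 and Ccna2 at 124. Epithelial genes were of the same order, with Ctnnb1 at 248.6, Cldn6 at 210.6, Epcam at 194.5 and Cdh1, the epithelial cadherin, at 176.2 CPM per kb. Cdh1 ranged from 735.3 to 829.7 CPM.

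Epiblasts of a cross differed little for most genes. The SD of log2(CPM + 0.5) within a cross, pooled over both crosses, had a median of 0.2325 over 10046 genes, and 167 genes (1.662%) exceeded 1. The median fell with level, from 0.43 at 5 to 10 CPM over 1599 genes to 0.13 at 100 CPM or more over 2127 genes. The median spread was 0.20 among the Ehmt2 controls and 0.22 among the Ezh2 controls.

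The genes at the top of this order fell into sets that were high in particular embryos. Of the 100 most variable genes, 41 were highest in Ezh2 control 2 and 39 in Ezh2 control 1, whereas among the 10046 genes ranked these epiblasts were highest for 1623 and 1552. The 15 leading genes comprised 4 Y-linked genes, 6 genes of the visceral endoderm list, the streak-list genes T and Lhx1, and Cryab, Wt1 and Pga5.

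**Figure D3:**
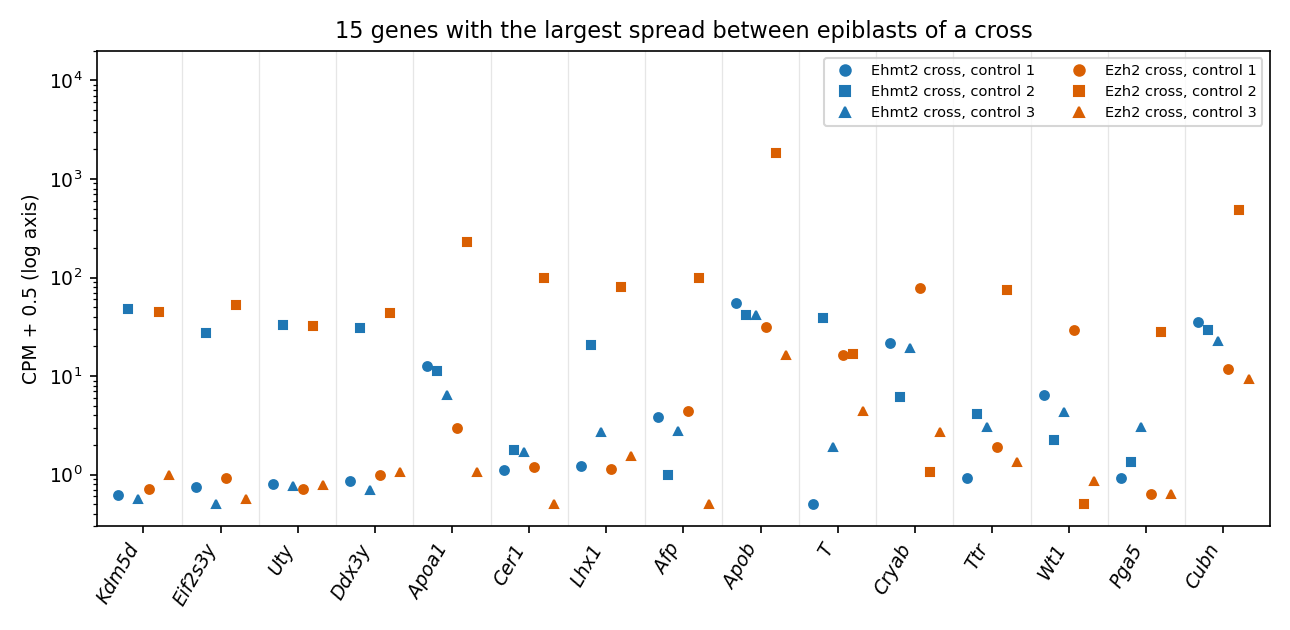
CPM plus 0.5 on a log axis of the 15 genes with the largest pooled SD of log2(CPM + 0.5) within a cross, in each control epiblast. Kdm5d, Eif2s3y, Uty and Ddx3y are high in control 2 of both crosses, and Apob, Apoa1, Afp and Cubn are high in Ezh2 control 2.

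Kdm5d, a histone demethylase gene on the Y chromosome, had the largest SD, 3.49, with 0.1229, 46.9 and 0.06632 CPM in the Ehmt2 controls and 0.2097, 44.56 and 0.495 CPM in the Ezh2 controls. Eif2s3y, Uty and Ddx3y showed the same order. Ehmt2 control 2 held 27.12, 32.64 and 30.18 CPM of them and Ezh2 control 2 held 52.72, 31.4 and 42.77 CPM, against at most 0.5657 CPM elsewhere. Summed Y-linked levels were 141.4 and 182.1 CPM in these embryos and 2.852 to 4.879 CPM in the others. Of 7 partners of such genes on the X chromosome, Ehmt2 control 2 was the lowest epiblast for 4 and Ezh2 control 2 for 2, and Ezh2 control 2 was the highest for 1. The partners Eif2s3x, Kdm6a and Kdm5c, named after their values were seen, were lower in both embryos than in the other epiblasts. Eif2s3x stood at 896.4, 503.1 and 894.1 CPM against 825.2, 527.8 and 765.8, Kdm6a at 216, 136 and 241.5 against 196.7, 130.5 and 210.4, and Kdm5c at 176.5, 127 and 189.6 against 188.3, 139 and 186.9. Each cross thus held 1 epiblast with high Y-linked levels. Xist was not analysed here.

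Visceral endoderm genes were high in 1 embryo. Their summed level was 686.5, 536.1 and 528.3 CPM in the Ehmt2 controls and 407.1, 3897 and 410.4 CPM in the Ezh2 controls, and 19 of 21 members were highest in Ezh2 control 2. Apob, the apolipoprotein of lipoprotein particles, stood at 55.05, 40.79 and 41.58 CPM against 30.9, 1838 and 15.98. Ttr, Afp and Apoa1, serum carriers made by this tissue, reached 73.89, 98.71 and 228.2 CPM there and at most 3.591, 3.915 and 12.1 elsewhere. Cubn, an endocytic receptor of visceral endoderm, reached 480.8 CPM against 8.839 to 34.71. Cer1 and Dkk1, secreted antagonists of the anterior visceral endoderm, were at 97.92 and 25.82 CPM in Ezh2 control 2 and at or below 1.286 and 0.5896 elsewhere. Lrp2, by contrast, ranged from 256.2 to 482.7 CPM across all 6 and was not highest there.

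The same epiblast had the highest value for 15 of 35 listed imprinted genes and for 8 of 18 basement membrane and adhesion genes. H19, an imprinted long RNA, stood at 94.92, 86.51 and 63.66 CPM against 65.23, 244 and 33.02. Its neighbour Igf2, a growth factor, reached 39.7 CPM there against 6.859 to 21.99, and Peg3 reached 727.1 CPM against 200.3 to 467.1. Whether the visceral endoderm genes and these genes moved for the same reason was not tested.

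Genes of decidua and stroma were spread over the libraries at low levels. Their sum was 158.6, 78.41 and 111.2 CPM in the Ehmt2 controls and 325.4, 48.64 and 64.77 CPM in the Ezh2 controls, and 9 of 13 members were highest in Ezh2 control 1. Des, which encodes desmin, stood at 35.39, 10.93 and 36.74 CPM against 125.8, 6.294 and 24.54. Hoxa11 and Hand2, transcription factors of uterine stroma, reached 32.3 and 26.01 CPM in Ezh2 control 1 and 0.2146 CPM each in Ezh2 control 2. Wt1 and Cryab, among the 15 most variable genes, ran in the same order, with 29.01 and 77.18 CPM in Ezh2 control 1 against at most 5.96 and 20.95 elsewhere. Prl8a2, a decidual prolactin, differed from this order, with 25.31, 14.26 and 19.23 CPM in the Ehmt2 controls and 18.74, 0 and 1.202 CPM in the Ezh2 controls. The part of these genes in the other results was not tested.

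Primitive streak genes separated the embryos in both crosses. Their sum was 92.22, 608.1 and 202.1 CPM in the Ehmt2 controls and 332.8, 548.3 and 246.2 CPM in the Ezh2 controls. T, the streak transcription factor brachyury, had 0 counts in Ehmt2 control 1, which allows up to 3 counts or 0.182 CPM, then 38.38 and 1.393 CPM, against 15.8, 16.17 and 3.889 CPM. Mixl1, a mesendoderm homeobox gene, stood at 4.669, 120.9 and 4.244 CPM against 25.94, 52.07 and 8.556. Eomes, at 45.46, 302.7 and 140.1 CPM against 177.2, 238.4 and 155.2, was detected in every embryo. Ehmt2 control 2 was highest for 8 of 17 streak genes and Ezh2 control 2 for 6, and the latter includes the anterior genes Lhx1 at 79.54 and Dkk1 at 25.82 CPM. Labels give E6.25 for each embryo, so a finer stage cannot be told apart from other differences between embryos.

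Fosb, an immediate early gene, was highest in Ehmt2 control 1 at 28.63 CPM against at most 5.091 elsewhere. Primordial germ cell genes summed to between 74.88 and 95.56 CPM, with a median SD within a cross of 0.39 log2 units over 6 genes. Extraembryonic ectoderm genes summed to between 161.3 CPM in Ehmt2 control 1 and 412.2 CPM in Ehmt2 control 2. Eomes, which is on this list and on the streak list, was lowest and highest in the same embryos. The range therefore cannot be read as extraembryonic ectoderm alone.

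Between the crosses, 5 of 13780 genes tested differed (edgeR quasi-likelihood test, Benjamini-Hochberg adjusted p-value under 0.05), or 0.0363% of them, and all 5 were higher in the Ezh2 cross. Beyond 1.4 on the log2 scale were 4 genes, 0.029%. The crosses did not overlap for 1652 genes, 12% of those tested, with 841 (6.1%) above and 811 (5.89%) below in the Ezh2 cross. At an unadjusted p-value under 0.05 were 884 genes, 6.42%, of which 499 (3.62% of all) were higher and 385 (2.79%) lower in the Ezh2 cross. The median log2 fold change over all genes was 0.01.

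**Figure D4:**
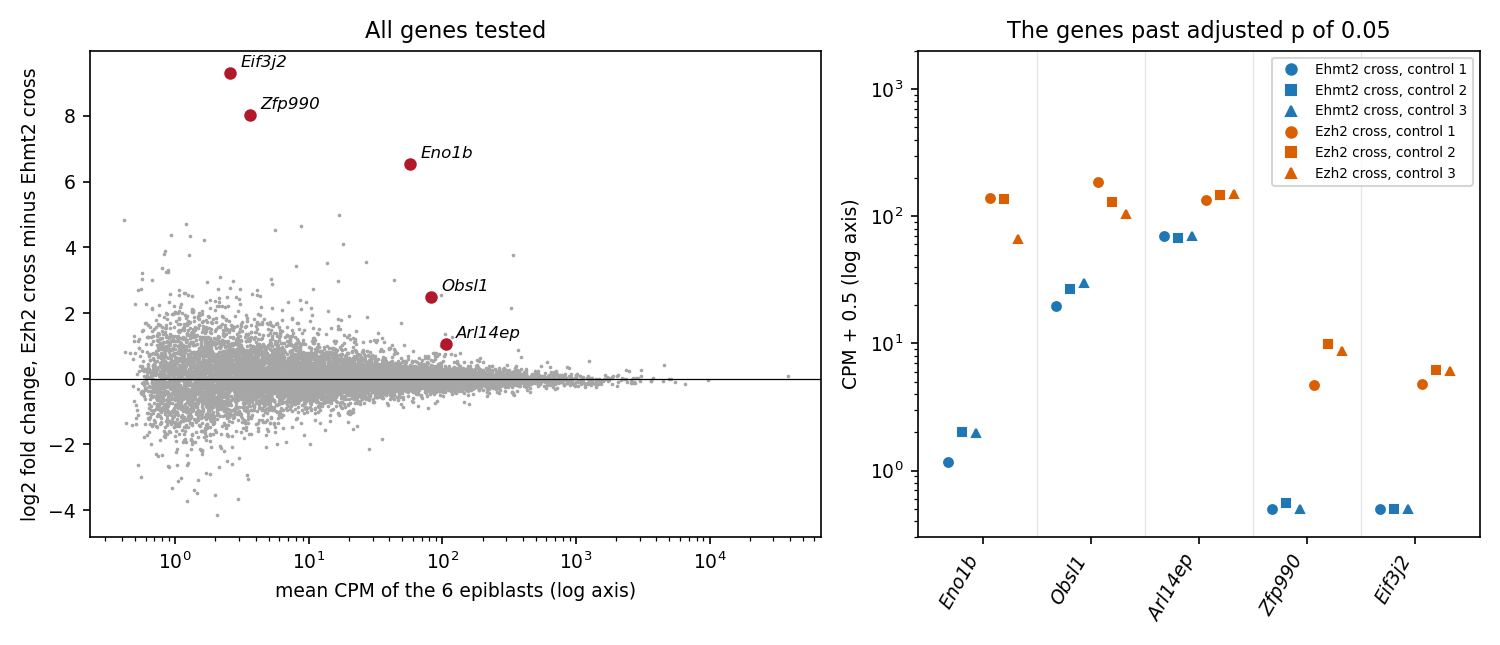
Left, log2 fold change of the Ezh2 over the Ehmt2 control epiblasts against mean CPM on a log axis for the 13780 genes tested, with the 5 genes past the adjusted p in red. Right, CPM plus 0.5 on a log axis of these 5 genes in each epiblast, all higher in the 3 Ezh2 controls than in the 3 Ehmt2 controls.

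Eno1b (ENSMUST00000076155, chromosome 18), a gene for the glycolytic enzyme enolase, showed the clearest difference. It stood at 0.6758, 1.501 and 1.459 CPM in the Ehmt2 controls and at 139.3, 135.7 and 65.55 CPM in the Ezh2 controls. The fitted level was 92.71-fold higher in the Ezh2 cross (log2 fold change 6.53 ± 0.39 SE; edgeR adjusted p = 0.0001025). The knockouts of each cross kept this split, at 1.155, 0.5165 and 0.7891 CPM for Ehmt2 and 106.2, 147.1 and 106.2 CPM for Ezh2, and control 4 of the Ehmt2 cross held 1.493 CPM. The transcript shares 78.25% of its 40-base windows with Eno1, so its reads are uncertain between the copies. Eno1 itself stood at 627.2, 658.5 and 686.6 CPM against 518.8, 495.6 and 598 CPM, lower in every Ezh2 control but short of the test (-0.29 ± 0.09 SE; edgeR adjusted p = 0.6463).

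Eif3j2 (ENSMUST00000057110, chromosome 18), a copy of the initiation factor gene Eif3j1, ran alike. It had 0 counts in each of the 3 Ehmt2 controls and 61, 79 and 78 counts in the Ezh2 controls. The Ezh2 mean of 5.144 CPM was at least 85.75-fold higher than 3 counts over the 3 Ehmt2 controls together (edgeR adjusted p = 0.02811). The Ezh2 knockouts held 5.054, 2.259 and 4.916 CPM and the Ehmt2 knockouts at most 0.07216. Of its 40-base windows, 92.39% also occur in Eif3j1, which stood at 320.6, 272.8 and 318 CPM against 230.9, 245.3 and 235.1 (-0.36 ± 0.10 SE; edgeR adjusted p = 0.5952). Eno1b and Eif3j2 lie within 5 Mb of each other. The call on Eif3j2 was lost when any 1 of the 6 epiblasts was left out, and that on Eno1b held throughout.

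Obsl1 (ENSMUST00000127507, chromosome 1, 75496337 to 75503680), a cytoskeletal adaptor gene, stood at 19.23, 26.21 and 29.31 CPM in the Ehmt2 controls and at 186.5, 128.6 and 102.9 CPM in the Ezh2 controls. The fitted level was 5.592-fold higher (log2 fold change 2.48 ± 0.24 SE, edgeR adjusted p = 0.00518), and the transcript counted is annotated as a retained intron. With all transcripts tested, protein-coding transcripts of Obsl1 also passed, among them ENSMUST00000113565 (2.59 ± 0.19 SE, edgeR adjusted p = 0.00055). A read can be counted for several of them. The knockouts kept the split, with 17.1, 11.29 and 21.24 CPM against 149.7, 378.6 and 335.4 CPM.

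Arl14ep (chromosome 2, 106962527 to 106974424), named as an effector of an ARF-like GTPase, was the tightest within crosses. It stood at 69, 67.48 and 69.9 CPM in the Ehmt2 controls and at 132.5, 146.1 and 149.1 CPM in the Ezh2 controls (log2 fold change 1.05 ± 0.11 SE; edgeR adjusted p = 0.008446). In the knockouts, values of 82.99, 88.46 and 81.34 CPM lay below 156, 100.3 and 141.6 CPM, but the test did not pass there (0.65; edgeR adjusted p = 0.09187). None of its 40-base windows, nor those of Obsl1, occurred in another gene. The calls on Obsl1 and Arl14ep, and that on Zfp990 below, were lost when any 1 of the 3 Ehmt2 controls was left out and held when any 1 of the 3 Ezh2 controls was.

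Zfp990 (chromosome 4, 145514884 to 145539188), a zinc finger gene, had 0, 1 and 0 counts in the Ehmt2 controls and 60, 132 and 116 counts in the Ezh2 controls. The ratio of counts at equal depth was 363.1, which rests on a single count in Ehmt2 control 2 and has an exact 95% counting interval from 64.68 to 14390 (edgeR adjusted p = 0.009883). Against 3 counts over the 3 Ehmt2 controls, the base used for Eif3j2, the fold was 121.4. Zfp990 was also listed in the Ehmt2 knockouts, at 1.876, 0.8116 and 0.3946 CPM, below the 9.949, 9.173 and 13.29 CPM of the Ezh2 knockouts. Of its windows, 38.6% occur in other genes, 19.9% in Zfp534.

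Zinc finger genes near Zfp990 leaned the same way. Of 100 tested genes within 5 Mb, 12 carry a Zfp symbol, Zfp990 included. Higher in the Ezh2 cross by sign were 11 of these 12, with 7 above without overlap, 7 at an unadjusted p under 0.05 and a median log2 fold change of 0.8. Of the 88 other genes, 44 were higher by sign, with 11 above, 9 below, 11 at an unadjusted p under 0.05 and a median of 0.01. Over all genes tested, 6.1% lay above and 6.42% had such a p. The 88 include Gm21411, a zinc finger gene without a Zfp symbol, at a log2 fold change of 4.72 ± 0.95 SE (edgeR adjusted p = 0.395). It had at most 3 counts in an Ehmt2 control. The window was chosen because Zfp990 passed the test, and its other genes were named after their values were seen.

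**Figure D5:**
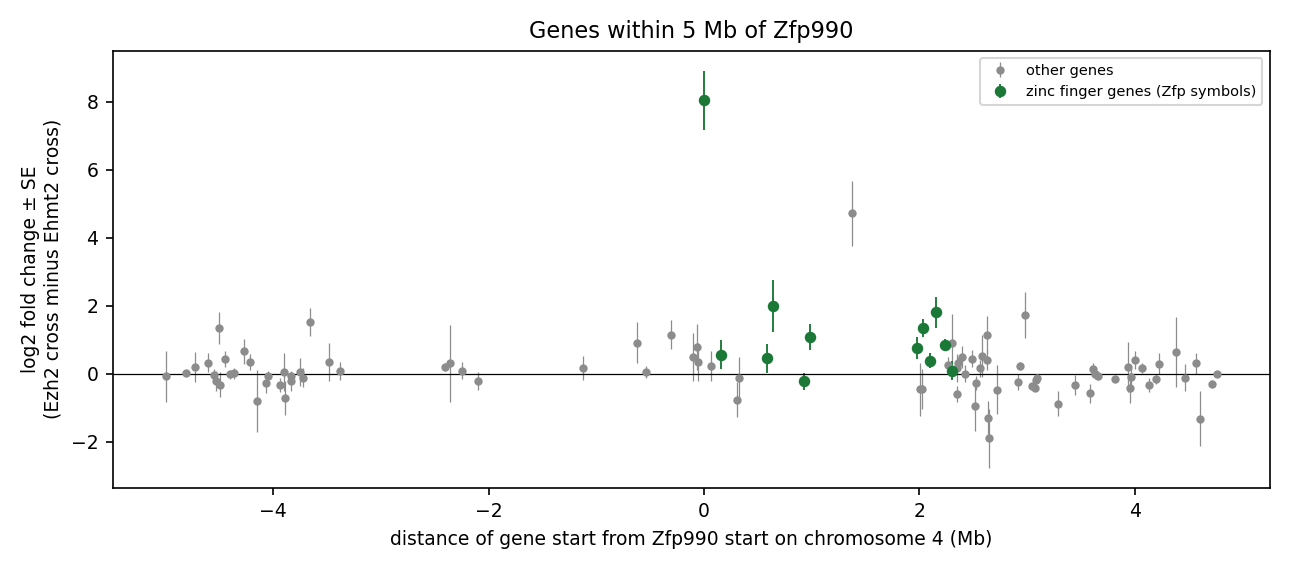
Log2 fold change with SE of the 100 tested genes within 5 Mb of Zfp990 against the distance of their starts from its start, with genes of a Zfp symbol in green. Of the green points 11 of 12 lie above 0, and of the grey points 44 of 88.

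Zfp985 stood at 6.205, 6.164 and 7.295 CPM in the Ehmt2 controls and at 13.91, 16.52 and 19.73 CPM in the Ezh2 controls (log2 fold change 1.35 ± 0.27 SE; edgeR adjusted p = 0.395). Zfp984 stood at 28.14, 30.71 and 35.15 CPM against 47.61, 59.58 and 61.8 (0.85 ± 0.17 SE; edgeR adjusted p = 0.395). Neither overlapped between crosses and neither passed the edgeR test, while both passed with DESeq2 (DESeq2 adjusted p = 0.01179 for Zfp985 and 0.005609 for Zfp984). Zfp534 ranged from 1.715 to 2.255 CPM against 5.243 to 10.09, and Zfp981 from 2.733 to 3.686 against 5.593 to 8.556. In the knockouts, which differ by targeted gene as well as by cross, the log2 fold changes of Zfp984 and Zfp534 were 0.74 and 0.58. That of Zfp985 was 0.07 and that of Zfp981 was -0.63, so between knockouts the direction did not hold for every gene. Zfp985 stood at 28.58, 15.57 and 13.22 CPM in the Ehmt2 knockouts and at 21.48, 17.8 and 21.06 CPM in the Ezh2 knockouts. Zfp981 stood at 14.87, 7.157 and 10.19 CPM against 8.133, 4.792 and 7.839 CPM. These genes share sequence with other genes to unlike degrees. The share of windows that occur in other genes was 77.9% for Zfp534, 65.84% for Zfp984, 48.08% for Zfp981 and 25.78% for Zfp985. Their counts are therefore not fully independent, with the least sharing for Zfp985.

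The start regions of 3 of these genes are shown so that their likeness and differences can be read. None of the 3 genes passed the edgeR test. They are RefSeq sequences on GRCm38.p6, 250 bases before to 50 after the RefSeq start, which need not be the start of the transcript counted, 5′ to 3′ on the strand of the gene, and capitals mark each CG, the dinucleotide that DNA methyltransferases modify.

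Zfp985, chr4:147553027-147553326 (+): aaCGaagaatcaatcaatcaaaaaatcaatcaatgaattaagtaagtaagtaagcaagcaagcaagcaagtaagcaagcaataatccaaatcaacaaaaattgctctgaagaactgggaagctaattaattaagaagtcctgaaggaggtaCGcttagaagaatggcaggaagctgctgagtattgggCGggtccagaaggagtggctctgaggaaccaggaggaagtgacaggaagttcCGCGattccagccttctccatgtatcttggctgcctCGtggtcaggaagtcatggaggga
Zfp534, chr4:147702582-147702881 (-): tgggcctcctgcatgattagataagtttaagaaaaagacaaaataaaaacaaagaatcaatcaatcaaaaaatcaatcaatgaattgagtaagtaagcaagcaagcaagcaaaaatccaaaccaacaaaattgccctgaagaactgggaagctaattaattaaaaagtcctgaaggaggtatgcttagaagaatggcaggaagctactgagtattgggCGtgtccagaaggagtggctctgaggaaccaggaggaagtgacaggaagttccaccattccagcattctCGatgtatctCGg
Zfp984, chr4:147809739-147810038 (-): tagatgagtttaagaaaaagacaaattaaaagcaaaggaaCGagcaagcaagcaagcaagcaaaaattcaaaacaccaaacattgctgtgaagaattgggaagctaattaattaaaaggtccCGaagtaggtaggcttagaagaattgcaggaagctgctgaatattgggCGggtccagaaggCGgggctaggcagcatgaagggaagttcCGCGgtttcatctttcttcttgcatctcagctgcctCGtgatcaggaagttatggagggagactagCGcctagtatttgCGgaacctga

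In global alignments the promoter of Zfp985 was 72.21% identical to that of Zfp534 and 70.52% to that of Zfp984, and the latter pair was 54.46% identical. They hold 6, 3 and 9 CG dinucleotides in this order, against a median of 7 over 32851 promoters of the same length.

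Gamma protocadherins, cell adhesion genes of chromosome 18 that share their last exons, differed by sign in the other direction. All 9 tested members were lower in every Ezh2 control, with 34.34 to 37.42, 24.49 to 27.98 and 20.03 to 22.55 CPM in the Ehmt2 controls and 13.91 to 15.59, 15.31 to 16.67 and 9.121 to 10.68 CPM in the Ezh2 controls. Control 4 of the Ehmt2 cross broke this separation, with 5.032 CPM of Pcdhgc3. Since their reads are counted for each gene that shares the exon, they amount to 1 measurement. Pcdhgc3, their highest member, had a log2 fold change of -1.0 ± 0.26 SE and did not pass the test (edgeR adjusted p = 0.5344). With control 4 added the value was -0.67 ± 0.51 SE, and in the knockouts, which differ by targeted gene as well, it was 0.11.

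By chromosome, 13.2% of 341 genes tested on chromosome 18 had an unadjusted p under 0.05, or 11.11% of 333 with the gamma protocadherins as 1, against 6.42% of all genes. The X chromosome had 8.382% and chromosome 4 had 7.751%. Within 5 Mb of Ehmt2, the targeted locus of the first cross, 14 of 164 genes (8.537%) had an unadjusted p under 0.05. Without overlap, 11 of the 164 lay above and 17 below, where the shares over all genes were 6.1% and 5.89%. Within 5 Mb of Ezh2, 1 of 51 genes (1.961%) had an unadjusted p under 0.05, with 0 above and 3 below.

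Among the 31 gene lists, 388 different genes were tested, of which 0 passed the adjusted test in edgeR and 5 passed in DESeq2. At an unadjusted p under 0.05 were 58 (14.95%, against 6.42% of all genes). The lists were chosen with earlier results of these data known, so no conclusion is drawn from the higher share. The visceral endoderm, hypoxia and glycolysis lists, which can share genes, held 9, 6 and 6 genes at that limit. For core pluripotency, 4 of 13 tested genes had an unadjusted p under 0.05, with a median log2 fold change of -0.06. Dppa4, a chromatin protein gene of pluripotent cells, stood at 7.741, 4.02 and 4.841 CPM against 18.25, 14.95 and 14.71 (1.53 ± 0.33 SE; edgeR adjusted p = 0.4685), and its neighbour Dppa2 ran the same way without overlap. Sox2 stood at 50.63, 55.26 and 45.82 CPM against 33.07, 42.56 and 32.95 (-0.48 ± 0.17 SE; edgeR adjusted p = 0.6622), and at 35.1 CPM in control 4 of the Ehmt2 cross. In the knockouts, which differ by targeted gene as well as by cross, Dppa4 had the opposite sign, at -0.80. It stood there at 36.01, 21.1 and 18.54 CPM for Ehmt2 and at 16.27, 7.187 and 19.93 CPM for Ezh2.

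For the visceral endoderm list, 17 of 19 tested genes were higher in the Ezh2 cross by sign, with a median log2 fold change of 2.39 and 9 at an unadjusted p under 0.05. Yet 0 of the 19 lay above without overlap, since Ezh2 control 2 was high and the other Ezh2 controls were not. Without that embryo the number of genes that passed over the whole table was again 5, of which 4 were among the genes named above. For formative genes the median was -0.14 over 16 tested, for naive genes 0.77 over 9, for hypoxia genes 0.47 over 16 and for housekeeping genes -0.01 over 12.

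Itgb1, the beta subunit shared by many integrins, came nearest among the list members, at 154.1, 152.3 and 142.2 CPM against 240.3, 214 and 242 (0.63 ± 0.10 SE; edgeR adjusted p = 0.1072). In the knockouts its value was 0.17. The germline genes Stag3 and Mael stood at 3.714 to 5.36 and 1.876 to 3.979 CPM in the Ehmt2 controls and at 7.778 to 15.73 and 7.296 to 11.89 CPM in the Ezh2 controls. Neither passed the test between controls (edgeR adjusted p = 0.5201 and 0.531). Between the knockouts, which differ by targeted gene as well, their values were 2.24 and 2.96 (edgeR adjusted p = 0.04936 and 0.003182). Rpph1, the RNA of RNase P, did not overlap either, at 7.343 to 10.38 against 16.83 to 31.4 CPM. Control 4 of the Ehmt2 cross, however, held 25.37 CPM of Rpph1, and with it the value fell from 1.52 ± 0.29 to 0.95 ± 0.43 SE. Malat1, an abundant nuclear RNA, ranged from 2490 to 3049 CPM against 3140 to 3499, without overlap and short of the test (0.27 ± 0.08 SE; edgeR adjusted p = 0.6383).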

How the data were processed

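RNA of each E6.25 epiblast was extracted, checked for integrity and amplified from 750 pg with the Ovation RNA-seq System V2, which is not stated to keep strand. The authors trimmed reads to 40 nt, aligned them to GRCm38 with Tophat2 and deposited HTSeq counts per transcript of Ensembl release 74, without normalisation; a read can be counted for each transcript that holds its exon. A transcript not listed in a library was taken as 0, and 66939 of 69271 listed transcripts (96.6%) were matched to GENCODE vM21. Each gene was represented by the transcript with the highest mean count over the 6 epiblasts, so reads of its other transcripts are left out. Per-library totals and the value of 3 counts stand in the text.

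Counts were filtered with filterByExpr by cross, scaled by TMM and tested with glmQLFit and glmQLFTest (edgeR 4.0.16, R 4.3.3), cross being the sole term, with Benjamini-Hochberg adjustment over 13780 genes; SEs were taken from the fold change and its F statistic. Levels per kb used transcripts of at least 300 nt, and spread used log2(CPM + 0.5) for genes of at least 5 CPM. Counts of genes detected were compared with an exact permutation test. Alternatives were DESeq2 1.42.0, RLE scaling, other filters, all transcripts, thinning, control 4 added, a Y-linked covariate, a replicate block and leaving out each epiblast. The code was tested on simulated counts with 200 genes changed.

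Genes were named by rule: the 20 most abundant, all that passed the adjusted test, the 15 most variable, the highest and the called members of 31 lists and 44 families, Ehmt2 and Ezh2. The members and lists were chosen with earlier results of these data known, and genes named outside the rule, those around Zfp990, the gamma protocadherins and list members short of the test among them, were chosen after their values were seen. The replicate numbers did not pair the samples: deviations of same-numbered epiblasts correlated at 0.044, 0.126 and -0.017. No 2 libraries agreed within sampling noise (chi-square per degree of freedom 17.6 to 36.1).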

Additional observations from a re-analysis of the deposited data

Results flagged for a closer look

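Transcripts without a match in the annotation held counts that no comparison used. Their share was 2.409 to 2.486% of an epiblast's counts, with 2.486% in Ezh2 control 2, and it was alike in both crosses.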

How the results depend on the processing

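The number of genes that differed between crosses was 5 with TMM and also with RLE scaling, thinned counts or control 4 of the Ehmt2 cross added. It was 49 with DESeq2 (35 higher and 14 lower in the Ezh2 cross, the 5 among them), 9 with no filter on low counts, and from 1 to 6 when an epiblast was left out: 1, 2 and 1 without Ehmt2 control 1, 2 or 3, and 5, 5 and 6 without Ezh2 control 1, 2 or 3. Beyond 1.4 on the log2 scale the number was 4, against 19 with DESeq2 and 1 to 5 with an epiblast left out. With the replicate number as a block, although the numbers do not pair the embryos, 4 genes passed and Eif3j2 did not; beyond 1.4 there were 3. A Y-linked covariate gave the same counts, 4 and 3, also without Eif3j2. A filter of 10 counts in every epiblast gave 7 genes, 3 of them among the 5, since it removes Zfp990 and Eif3j2. Comparing knockouts 1 to 3 of the crosses instead, an alternative chosen after the data were seen, gave 198 genes, of which 153 lay beyond 1.4, with 4 of the 5 among them. The knockouts differ by gene as well as by cross. Eno1b passed in all 15 settings it was tested in. Of 78 recomputed values of the 5 genes 60 stayed past the test and 18 fell short of it, all with the same sign. Of 492 values of the other named genes 483 kept sign and side, 8 passed with DESeq2, and Ehmt2 turned to -0.01 with control 4 added.

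The difference in genes detected was -200.3 and ranged from -317.7 to -42.17 with an epiblast left out, but was 65.67 after thinning and 59 at a limit of 1 CPM; the unequal totals enter the first value by construction. The median spread of 0.2325 became 0.2859 from 1 CPM, 0.1518 from 50 CPM and 0.2083 to 0.2284 with an epiblast left out. Of the 20 most abundant genes, 9 stayed among the first 20 without division by length. Depth limits genes near 0.2 CPM, where 3 counts lie. The cause of the other changes was not tested.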

Other observations

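Imprinted genes were widely expressed, with 28 of 41 at 10 counts or more in every epiblast. Snrpn and Gnas led at 207 and 172.7 CPM per kb, ahead of Grb10, an adaptor of growth factor signalling, at 107.6 and Mest at 82.94. Of the p53 list, Trp53 itself ranged from 419.4 to 489.9 CPM, and its target Ccng1 ranged from 69.41 in Ehmt2 control 2 to 180.4 in Ezh2 control 1. Of the amino acid and stress response list, Atf4, its central transcription factor, ranged from 170.7 to 235.2 CPM.

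Germline genes were not uniformly silent. Of 22 late germline and meiosis genes 13 had 10 counts or more in every epiblast. Sycp3, a component of the meiotic chromosome axis, ranged from 20.49 to 29.27 CPM, and Ddx4, a germ cell helicase, from 5.372 to 20.39. Rhox5, a placental homeobox gene, was highest in Ezh2 control 2, at 47.14 CPM against 1.768 to 12.81.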
